A study of Rattus norvegicus with 8 samples.

Results

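The liver enzymes that remove superoxide and hydrogen peroxide were followed in 8 male F344/N rats, an inbred strain. They were 10 genes, namely Gpx1, Gpx2, Gpx3, Gpx4, Cat, Sod1, Sod2, Prdx1, Prdx3 and Prdx6, found by gene symbol in the array annotation; the set was put together with earlier results of these data known. All 10 were measured, by 11 of the 26208 probe sets of a NimbleGen array read in a single colour (Cy3), which stand for 24144 distinct names. Gpx4 has 2 probe sets, and each of the 11 holds 3 probes. The control group was 4 untreated rats kept on basal diet and tap water, and the treated group was 4 rats that received thioacetamide over 28 days. All had an acclimatization period first, gavage is the labelled route in both groups, and neither dose nor age is stated in the labels. Thioacetamide is a liver toxin that must first be oxidised by liver enzymes, and the comparison asks how its repeated intake changed liver RNA. In bulk samples fewer cells of a type and less RNA per cell cannot be told apart.

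Superoxide dismutases turn superoxide, a by-product of respiration and of oxidases, into hydrogen peroxide. Catalase splits the peroxide in the peroxisome without a donor, glutathione peroxidases reduce it with electrons from glutathione, and most peroxiredoxins with electrons from thioredoxin. The transcription factor Nrf2, which is released from its repressor by oxidants and electrophiles, raises a number of antioxidant genes through a DNA element called the antioxidant response element.

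Promoters of the 10 genes were searched on both strands for the core of that element, TGACNNNGC. RefSeq windows of 300 bases (250 before and 50 after the gene start, build GRCr8) were found for 9 of the 10 genes (not for Prdx6), 11 windows in all, with 3 for Gpx4. The letters stood in 3 of the 11 windows, those of Gpx2, Prdx1 and Sod2, against 12.1% of the 33469 promoter windows of the table. In each the match reads on the opposite strand, 13 bases before the gene start in Gpx2 (as TGACTTAGC), 135 in Prdx1 (as TGACTCAGC) and 35 in Sod2 (as TGACCCTGC). The Prdx1 match overlaps the AP-1 motif TGACTCA. The TATA box letters TATAAA (14.2% of all windows) stood in the windows of Sod1 and Prdx1, and the GC box CCGCCC (33.1% of all windows) was absent from those of Gpx2 and Cat. A match is a run of letters and no measured binding site. The windows with a match are shown with it in capitals, beside that of Gpx3, which rose and holds none.
Gpx2, chr6:101229984-101230283, minus strand: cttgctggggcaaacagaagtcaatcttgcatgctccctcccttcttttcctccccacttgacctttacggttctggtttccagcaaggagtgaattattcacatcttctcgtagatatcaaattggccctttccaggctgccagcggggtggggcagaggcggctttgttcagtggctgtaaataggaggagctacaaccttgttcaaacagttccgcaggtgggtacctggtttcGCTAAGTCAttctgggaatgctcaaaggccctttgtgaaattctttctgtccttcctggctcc
Prdx1, chr5:135383656-135383955, plus strand: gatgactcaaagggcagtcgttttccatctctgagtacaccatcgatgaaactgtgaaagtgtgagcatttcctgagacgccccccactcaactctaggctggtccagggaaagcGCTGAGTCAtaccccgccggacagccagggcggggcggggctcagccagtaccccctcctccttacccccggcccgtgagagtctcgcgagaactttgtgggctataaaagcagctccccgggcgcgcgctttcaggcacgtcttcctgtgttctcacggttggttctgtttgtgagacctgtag
Sod2, chr1:50050119-50050418, minus strand: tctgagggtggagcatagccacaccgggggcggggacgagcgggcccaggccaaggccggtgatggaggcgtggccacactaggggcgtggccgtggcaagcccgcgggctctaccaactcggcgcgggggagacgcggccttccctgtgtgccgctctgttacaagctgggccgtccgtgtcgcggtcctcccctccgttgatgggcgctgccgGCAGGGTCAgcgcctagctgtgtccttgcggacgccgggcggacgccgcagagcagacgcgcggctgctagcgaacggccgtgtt
Gpx3, chr10:39529085-39529384, plus strand: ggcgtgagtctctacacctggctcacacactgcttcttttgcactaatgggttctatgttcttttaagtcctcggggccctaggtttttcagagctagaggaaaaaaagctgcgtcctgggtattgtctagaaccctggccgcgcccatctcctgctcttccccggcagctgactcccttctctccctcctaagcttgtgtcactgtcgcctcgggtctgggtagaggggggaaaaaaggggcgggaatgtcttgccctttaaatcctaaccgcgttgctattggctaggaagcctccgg

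Median log2 values of the arrays lay between 7.27 and 7.40. A background level was set for each array at the 95th percentile of 1313 olfactory receptor probe sets, and it spanned 6.96 to 7.88 on control and 6.54 to 6.93 on treated arrays. Of 8 hepatocyte markers 0 rose and 0 fell in limma, also without adjustment (0 and 0 with p under 0.05). Their mean log2 level was 15.51 to 15.64 in controls and 15.54 to 15.62 in treated rats. Among them Apoa1, the main HDL protein, gave a log2 difference of 0.18 ± 0.17 and Ttr, transthyretin, -0.12 ± 0.20 (adjusted p = 0.522 and 0.724). These markers lie at the top of the scale, and whether their probes still followed RNA there was not tested. The second principal component held 19.8% of the variance. On it control replicates 1 and 4 lay together (56.1 and 57.8), replicate 2 lay lower (14.8) and replicate 3 far lower (-57.5). Thioacetamide replicate 4 (-51.8) lay apart from the other treated arrays (-8.5 to -5.2). Results of the 10 genes are also given without control replicates 2 and 3 and thioacetamide replicate 4, called the 3 arrays that stand apart. This leaves the controls that lay closest together, so their spread can be smaller than that of all 4.

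Of the 10 genes 3 rose with thioacetamide, Gpx2, Gpx3 and Prdx6, and 0 fell. The other 7, among them both dismutases, catalase and Gpx1, did not pass the test (limma, Benjamini-Hochberg adjusted p under 0.05 over all 26208 probe sets), and 0 of these 7 had an unadjusted p under 0.05. Over all probe sets 9.46% rose and 5.14% fell, and the counts of the other lists below are to be read beside these same shares. The median log2 difference of the 10 genes was 0.19, against -0.03 over all probe sets. For all 3 the groups did not overlap, as for 13.9% of all probe sets with treated values higher. The 3 rises passed without the arrays that stand apart, and also whichever single array was omitted.

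**Figure D1:**
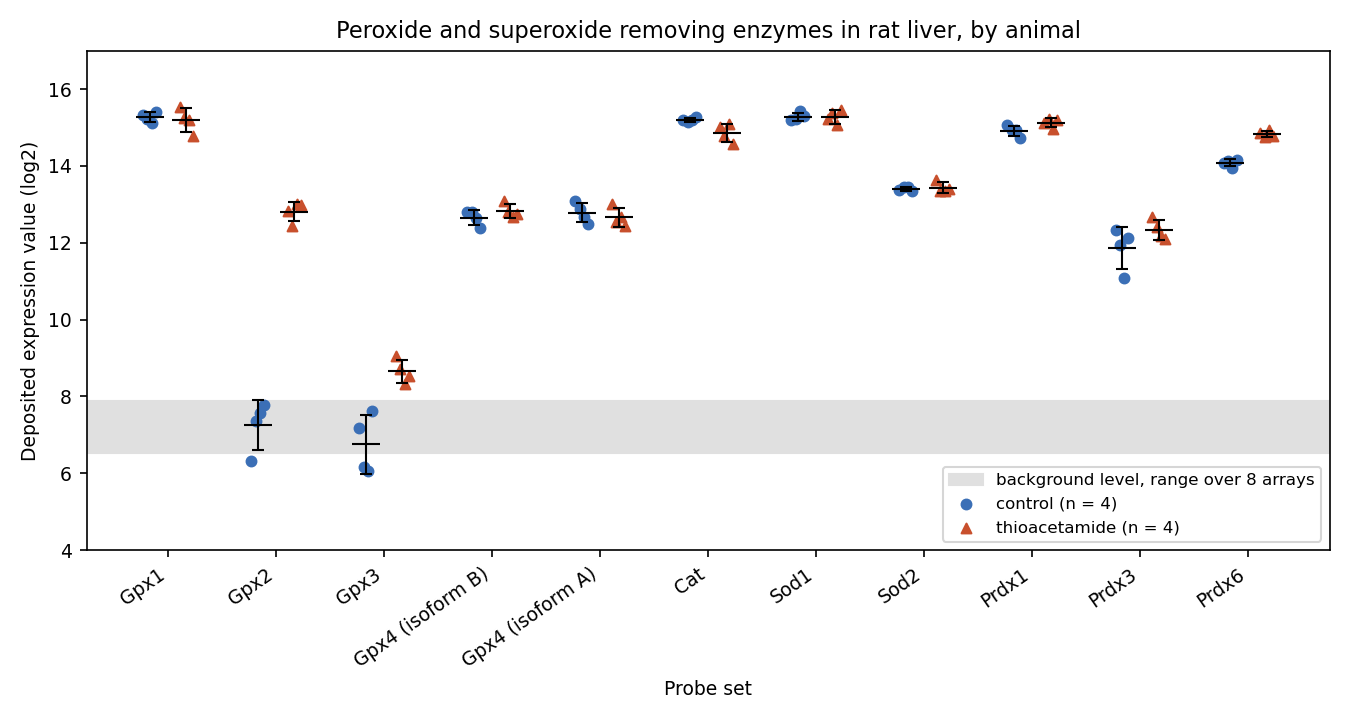
Deposited log2 values (y axis) of the 11 probe sets of the 10 genes (x axis), with 1 point per animal, bars for the mean and SD of 4 animals per group, and a grey band for the range of the background level over the 8 arrays. Treated and control points do not overlap for Gpx2, Gpx3, Prdx6 and Cat, and the Gpx2 and Gpx3 controls lie within or below the grey band.

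Gpx2, the glutathione peroxidase typical of gut epithelium, was near background in controls and high in treated livers. Its log2 values were 6.31, 7.35, 7.56 and 7.77 in control replicates 1 to 4 and 12.82, 12.45, 13.01 and 12.98 in thioacetamide replicates 1 to 4. The groups were far apart, and 1 of 4 control arrays exceeded its background. Gpx2 rose 47.3-fold (log2 difference 5.56 ± 0.31, SE, limma adjusted p = 9.99e-06), with a 95% interval of 29.2-fold to 76.7-fold. With every value set to at least its array's background, an alternative added after seeing the data, the fold was 39.9. Without the 3 arrays that stand apart it was 52.6.

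Some markers of bile duct cells, an epithelium of the liver, moved in the same direction as Gpx2. Of 8 such markers 3 rose and 0 fell (median 1.05), with a mean log2 level of 7.57 to 8.67 in controls and 9.12 to 9.87 in treated rats. Epcam, an epithelial adhesion molecule, rose by 1.87 ± 0.26, Cldn7, a tight junction protein, by 3.52 ± 0.32 and Cd24, a surface glycoprotein, by 3.51 ± 0.41 on the log2 scale (adjusted p = 0.00141, 0.000146 and 0.000479). The defining keratins did not pass, with Krt19 at 0.08 ± 0.53 and Krt7 at 0.23 ± 0.19 (adjusted p = 0.937 and 0.462). Krt7 was at or under background on all 4 control arrays. Sox9, Cftr and Spp1 did not pass either (1.26 ± 0.45, 0.84 ± 0.34 and -0.31 ± 0.45, adjusted p = 0.0931, 0.135 and 0.688). The part of these cells in the Gpx2 result was not tested.

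Gpx3, the glutathione peroxidase secreted into plasma and made mostly by the kidney, rose from the edge of detection. Its log2 values were 7.19, 6.17, 6.05 and 7.62 in controls and 9.05, 8.71, 8.33 and 8.54 in treated rats. The groups did not overlap, and all 4 treated but only 2 of 4 control arrays exceeded background. The rise was 3.73-fold (1.90 ± 0.36, adjusted p = 0.00664), with a 95% interval of 2.14-fold to 6.48-fold. It was 2.21-fold with values set to at least the background, and 2.44-fold (1.29 ± 0.27, adjusted p = 0.0158) without the 3 arrays that stand apart.

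Prdx6, the peroxiredoxin that draws on glutathione and also reduces phospholipid peroxides, rose by a small and even step. Its log2 values were 14.08, 14.14, 13.95 and 14.15 in controls and 14.86, 14.75, 14.93 and 14.78 in treated rats, with no overlap. The rise was 1.68-fold (0.75 ± 0.17, adjusted p = 0.0142), with a 95% interval of 1.30-fold to 2.18-fold. The difference was 0.73 ± 0.21 (adjusted p = 0.0463) without the 3 arrays that stand apart.

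Gpx1, the main cytosolic glutathione peroxidase of the hepatocyte, was among the brightest probe sets of the array. Its log2 values were 15.32, 15.23, 15.13 and 15.41 in controls and 15.54, 15.26, 15.21 and 14.77 in treated rats. The groups overlapped, with thioacetamide replicate 4 the lowest. The log2 difference was -0.08 ± 0.21 (95% interval -0.54 to 0.38, adjusted p = 0.840).

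Gpx4, which reduces lipid peroxides in membranes, has 1 probe set for each of the precursors named isoform A and isoform B in the files. Values for isoform B were 12.79, 12.79, 12.64 and 12.38 in controls and 13.08, 12.80, 12.67 and 12.74 in treated rats. Values for isoform A were 13.08, 12.89, 12.68 and 12.50 in controls and 13.01, 12.55, 12.67 and 12.43 in treated rats. The groups overlapped for both, and the differences had opposite signs: 0.17 ± 0.19 for B (95% interval -0.25 to 0.60, adjusted p = 0.583) and -0.12 ± 0.21 for A (-0.59 to 0.35, adjusted p = 0.744). LOC682306, which the files call similar to Gpx4, gave 0.01 ± 0.33 (adjusted p = 0.992), and signal shared between such copies cannot be told apart.

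Catalase was lower in all 4 treated rats but did not pass the test. The Cat values were 15.19, 15.14, 15.21 and 15.28 in controls and 15.02, 14.78, 15.08 and 14.56 in treated rats. The groups did not overlap, as was the case for 7.55% of all probe sets in this direction, and the spread was wider in treated rats (SD 0.238) than in controls (SD 0.0550). The log2 difference was -0.35 ± 0.19 (95% interval -0.76 to 0.07, adjusted p = 0.244). In the alternatives run it lay between -0.42 and -0.25 and passed in none.

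The dismutases showed the smallest differences of the 10 genes. Sod1, the copper-zinc enzyme of the cytosol, had log2 values of 15.19, 15.22, 15.42 and 15.30 in controls and 15.23, 15.38, 15.06 and 15.46 in treated rats. Sod2, the manganese enzyme of the mitochondrial matrix, had 13.38, 13.45, 13.44 and 13.35 in controls and 13.64, 13.34, 13.34 and 13.40 in treated rats. Both pairs of groups overlapped. The log2 difference was 0.00 ± 0.18 for Sod1 (95% interval -0.40 to 0.40, adjusted p = 0.998) and 0.03 ± 0.17 for Sod2 (-0.35 to 0.41, adjusted p = 0.935). As folds of treated over control the intervals ran from 0.759-fold to 1.32-fold for Sod1 and from 0.783-fold to 1.33-fold for Sod2.

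Prdx1 and Prdx3, the cytosolic and the mitochondrial peroxiredoxin, had positive differences that did not pass. Prdx1 values were 15.06, 14.93, 14.93 and 14.73 in controls and 15.12, 15.22, 14.96 and 15.20 in treated rats, which overlap (0.21 ± 0.17, 95% interval -0.18 to 0.60, adjusted p = 0.461). Prdx3 values were 12.32, 11.95, 11.08 and 12.13 in controls and 12.67, 12.40, 12.17 and 12.11 in treated rats, which overlap as well (0.47 ± 0.28, 95% interval -0.16 to 1.10, adjusted p = 0.308). Control replicate 3 was the lowest Prdx3 array, and without the 3 arrays that stand apart the difference was 0.19 ± 0.24 (adjusted p = 0.646). LOC683813, which the files call similar to peroxiredoxin 1, gave -0.48 ± 0.53 (adjusted p = 0.595).

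Gpx1, Cat, Sod1 and Prdx1 lay near the top of the scale, with at most 0.630%, 0.923%, 0.355% and 0.832% of probe sets brighter on any array. The proportion of signal to RNA was not tested for them either.

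**Figure D2:**
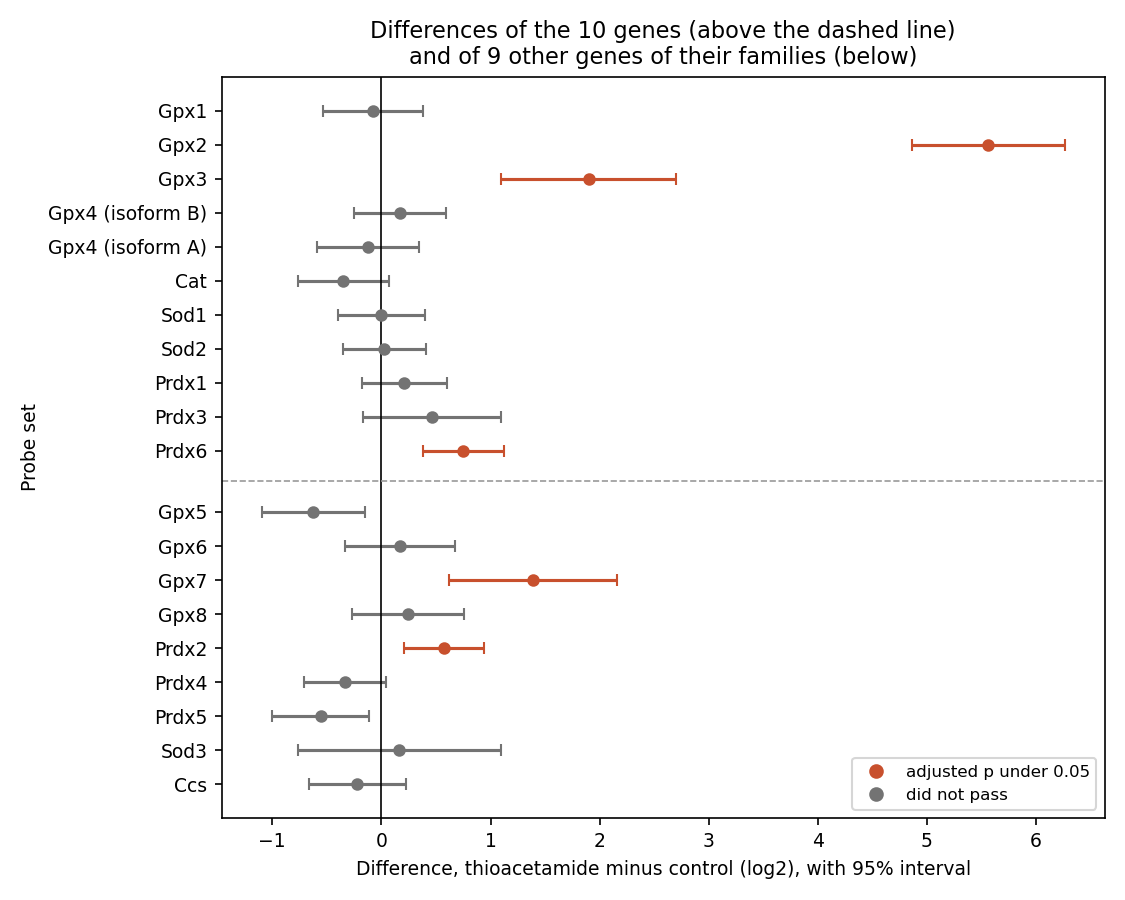
Log2 difference (x axis, thioacetamide minus control) with its 95% interval for the 11 probe sets of the 10 genes, above the dashed line, and for 9 further genes of their families, below it (y axis). Red points (Gpx2, Gpx3, Prdx6, Gpx7 and Prdx2) passed the test, and the intervals of Sod1 (-0.40 to 0.40) and Sod2 (-0.35 to 0.41) are centred near 0.

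Whether members of a family differed in their change was tested pair by pair. Gpx4 entered with its isoform B probe set alone. Isoform A, whose difference had the opposite sign, was not paired. For 10 pairs within the Gpx, Sod and Prdx families, the difference between 2 genes was taken on each array and compared between groups by an exact two-sided permutation test, in which 0.0286 is the smallest p that 4 against 4 animals allow. Of the 10 pairs 6 passed, each at that smallest exact p and at an adjusted p of 0.0476 over the pairs. They were the 5 Gpx pairs other than Gpx1 with Gpx4, and Prdx6 with Prdx1. With 10 pairs none could pass unless at least 6 reached that smallest p together. The call of Prdx6 with Prdx1 thus rested on the Gpx pairs too, and pairs that share a gene are not independent.

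Gpx2 rose by 5.64 ± 0.41 log2 units more than Gpx1. Relative to the change of Gpx2, that of Gpx3 was -3.67 ± 0.59 and that of Gpx4 -5.39 ± 0.43. Gpx3 rose by 1.98 ± 0.35 more than Gpx1 (1.32 without the 3 arrays that stand apart) and the change of Gpx4 relative to that of Gpx3 was -1.72 ± 0.45 (-1.02 without those arrays). Prdx6 rose by 0.54 ± 0.14 more than Prdx1. The difference did not pass for Prdx6 against Prdx3 (0.29 ± 0.27, exact permutation p = 0.343), Prdx3 against Prdx1 (0.26 ± 0.31, p = 0.571), Gpx4 against Gpx1 (0.25 ± 0.18, p = 0.257) or Sod2 against Sod1 (0.03 ± 0.13, p = 0.886).

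Among probe sets with a gene name (locus numbers left out), the profile closest to that of Gpx2 over the 8 arrays, by root mean square distance of values centred on the control mean, was that of Akr1b8, an aldo-keto reductase (distance 0.629 log2 units). Ddr1, a collagen receptor (0.675), Nefm, a neurofilament chain (0.747), Gstm3, a glutathione transferase (0.863), and Soat1, which esterifies cholesterol (0.877), came next. For Cat, the gene with the largest negative difference, the closest were Adtrp (0.0601), Aox1, an aldehyde oxidase (0.0702), Calr, a chaperone of the endoplasmic reticulum (0.0933), and Wdr13 (0.0996). Within 0.5 of Cat lay 11502 other probe sets, locus numbers included, against 1, a locus number, for Gpx2. That limit is wider than the Cat difference itself (-0.35), so flat profiles can fall within it as well. The count therefore does not show how common a fall like that of Cat was.

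Other genes of the same families were read next. Of 9, namely Gpx5 to Gpx8, Prdx2, Prdx4, Prdx5, Sod3 and the Sod1 copper chaperone Ccs, 2 rose and 0 fell (median 0.16, and -0.0940 under cyclic loess). Gpx7, a peroxidase of the endoplasmic reticulum, had log2 values of 9.66, 9.27, 10.30 and 8.75 in controls and 11.03, 10.82, 10.32 and 11.37 in treated rats, and rose 2.62-fold (1.39 ± 0.34, adjusted p = 0.0238). Prdx2, a cytosolic peroxiredoxin abundant in red cells, lay at 13.46 to 13.51 in controls and 13.98 to 14.20 in treated rats, and rose 1.49-fold (0.57 ± 0.17, adjusted p = 0.0441). Haemoglobin chains did not pass, with Hbb at -0.68 ± 0.28 and Hba-a2 at -0.36 ± 0.27 (adjusted p = 0.134 and 0.405).

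Both calls were close to the threshold. Gpx7 did not pass without control replicate 2 or thioacetamide replicate 1, 2 or 4 (adjusted p = 0.0629, 0.0716, 0.0653 and 0.0574) or under cyclic loess (adjusted p = 0.0713), and Prdx2 did not pass in any of the 8 fits that omit 1 array (adjusted p from 0.0634 to 0.116) or under median centring (adjusted p = 0.0740). The number that rose was 0 when control replicate 2 or thioacetamide replicate 1, 2 or 4 was omitted, and 1 when any other array was. Prdx4 and Prdx5, the peroxiredoxins of the secretory path and of mitochondria and peroxisomes, gave -0.33 ± 0.17 and -0.56 ± 0.20 (adjusted p = 0.224 and 0.0935). Gpx5 and Gpx6 were at or under background on every array.

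Of the enzymes that return thioredoxin and glutathione to their reduced form, Txnrd1 and Gsr rose, while Txnrd2 and Txnrd3 did not pass. Of 15 genes of the thioredoxin, glutaredoxin and glutathione reductase system 3 rose and 1 fell (median 0.06). Txnrd1, the cytosolic thioredoxin reductase that keeps peroxiredoxins supplied, had log2 values of 11.15, 10.85, 11.48 and 11.41 in controls and 12.83, 13.16, 13.01 and 12.52 in treated rats, a rise of 3.16-fold (1.66 ± 0.22, adjusted p = 0.00106). Glrx3, an iron-sulphur glutaredoxin, rose 2.85-fold (1.51 ± 0.20, adjusted p = 0.000915). Gsr, glutathione reductase, rose 1.89-fold (0.92 ± 0.25, adjusted p = 0.0343).

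The Gsr call passed in 2 of the 8 fits that omit 1 array, those without control or thioacetamide replicate 4, and the adjusted p lay between 0.0599 and 0.104 in the other 6. It was 0.0545 under median centring. Glrx5, a mitochondrial glutaredoxin of iron-sulphur assembly, fell by 0.89 ± 0.20 (adjusted p = 0.0140), and a second probe set of it was at or under background on all arrays. The mitochondrial reductase Txnrd2 gave 0.00 ± 0.26 and thioredoxin itself, Txn1, 0.17 ± 0.17 (adjusted p = 0.995 and 0.551). Srxn1, sulfiredoxin, which repairs overoxidised peroxiredoxins, was at or under background on every array.

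Genes of glutathione synthesis and NADPH supply gave 3 rises and 0 falls among 8 measured (median 0.57). Both subunits of the first enzyme of glutathione synthesis rose, Gclc 3.14-fold (1.65 ± 0.22, adjusted p = 0.00112) and Gclm 3.31-fold (1.73 ± 0.18, adjusted p = 0.000257). Gclm values were 12.07, 12.15, 12.39 and 12.27 in controls and 13.93, 14.13, 13.85 and 13.88 in treated rats, with no overlap. With a filter on dim probe sets, or with an intensity trend, 5 of the 8 rose.

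Of 14 Nrf2 regulators and core targets, 6 of which stand in the lists above, 10 rose and 0 fell (median 1.66). Nfe2l2, the gene of Nrf2 itself, rose by 1.92 ± 0.21 (adjusted p = 0.000393), while its repressor Keap1 gave -0.43 ± 0.22 (adjusted p = 0.217). Nqo1, a quinone reductase, rose 4.07-fold (2.03 ± 0.33, adjusted p = 0.00290). The conjugate exporters Abcc3 and Abcc4 rose by 4.30 ± 0.24 and 3.21 ± 0.45 (adjusted p = 9.99e-06 and 0.00137).

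Enzymes that make superoxide or hydrogen peroxide gave more falls than rises. Of 22 such genes 8 fell and 1 rose (median -0.51), and 5 fell without thioacetamide replicate 2. Nox4, an NADPH oxidase that releases hydrogen peroxide, had log2 values of 11.32, 11.86, 11.76 and 11.08 in controls and 5.51, 6.15, 6.14 and 5.60 in treated rats. It was at or under background on all 4 treated arrays and was at least 28.1-fold lower there (adjusted p = 1.65e-06). Aox3, an aldehyde oxidase, fell (adjusted p = 1.64e-06). Its log2 values were 13.14, 13.32, 13.79 and 13.04 in controls and 5.71, 6.75, 5.99 and 6.90 in treated rats, where 1 of 4 arrays was above background, so the measured difference of -6.98 ± 0.30 rests on values at background.

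The other 6 falls were all oxidases of the peroxisome, the organelle that holds catalase. Dao, D-amino acid oxidase, lay at 13.33 to 13.69 in controls and 10.88 to 11.20 in treated rats, a 5.70-fold fall (-2.51 ± 0.18, adjusted p = 3.55e-05). Acox2 and Acox3, the oxidases of bile acid intermediates and branched acyl chains, fell by 1.76 ± 0.19 and 1.24 ± 0.28 (adjusted p = 0.000331 and 0.0170). The hydroxyacid oxidases Hao2 and Hao1 fell by 1.23 ± 0.17 and 0.71 ± 0.19 (adjusted p = 0.00145 and 0.0314), and Pipox, which oxidises pipecolate and sarcosine, by 0.72 ± 0.19 (adjusted p = 0.0288).

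Not every peroxide source followed. The monoamine oxidases Maoa and Maob gave 0.86 ± 0.26 and -0.56 ± 0.23 (adjusted p = 0.0535 and 0.134), so neither passed. That of Maoa was the largest positive difference of the list. Uox, urate oxidase, gave -0.36 ± 0.19 and Xdh, xanthine dehydrogenase, -0.45 ± 0.19 (adjusted p = 0.229 and 0.134). The phagocyte oxidase subunits Cybb and Cyba gave -0.07 ± 0.25 and -0.59 ± 0.44 (adjusted p = 0.886 and 0.411). Paox, a polyamine oxidase, rose by 0.67 ± 0.18 (adjusted p = 0.0303), but a second probe set of it, above background on all arrays, gave -0.04 (adjusted p = 0.906), and another was at or under background on all. Its call was lost without control replicate 1 or 2, or thioacetamide replicate 1, 2 or 3 (adjusted p = 0.0718, 0.0711, 0.0812, 0.100 and 0.0657), and under cyclic loess (adjusted p = 0.0692).

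**Figure D3:**
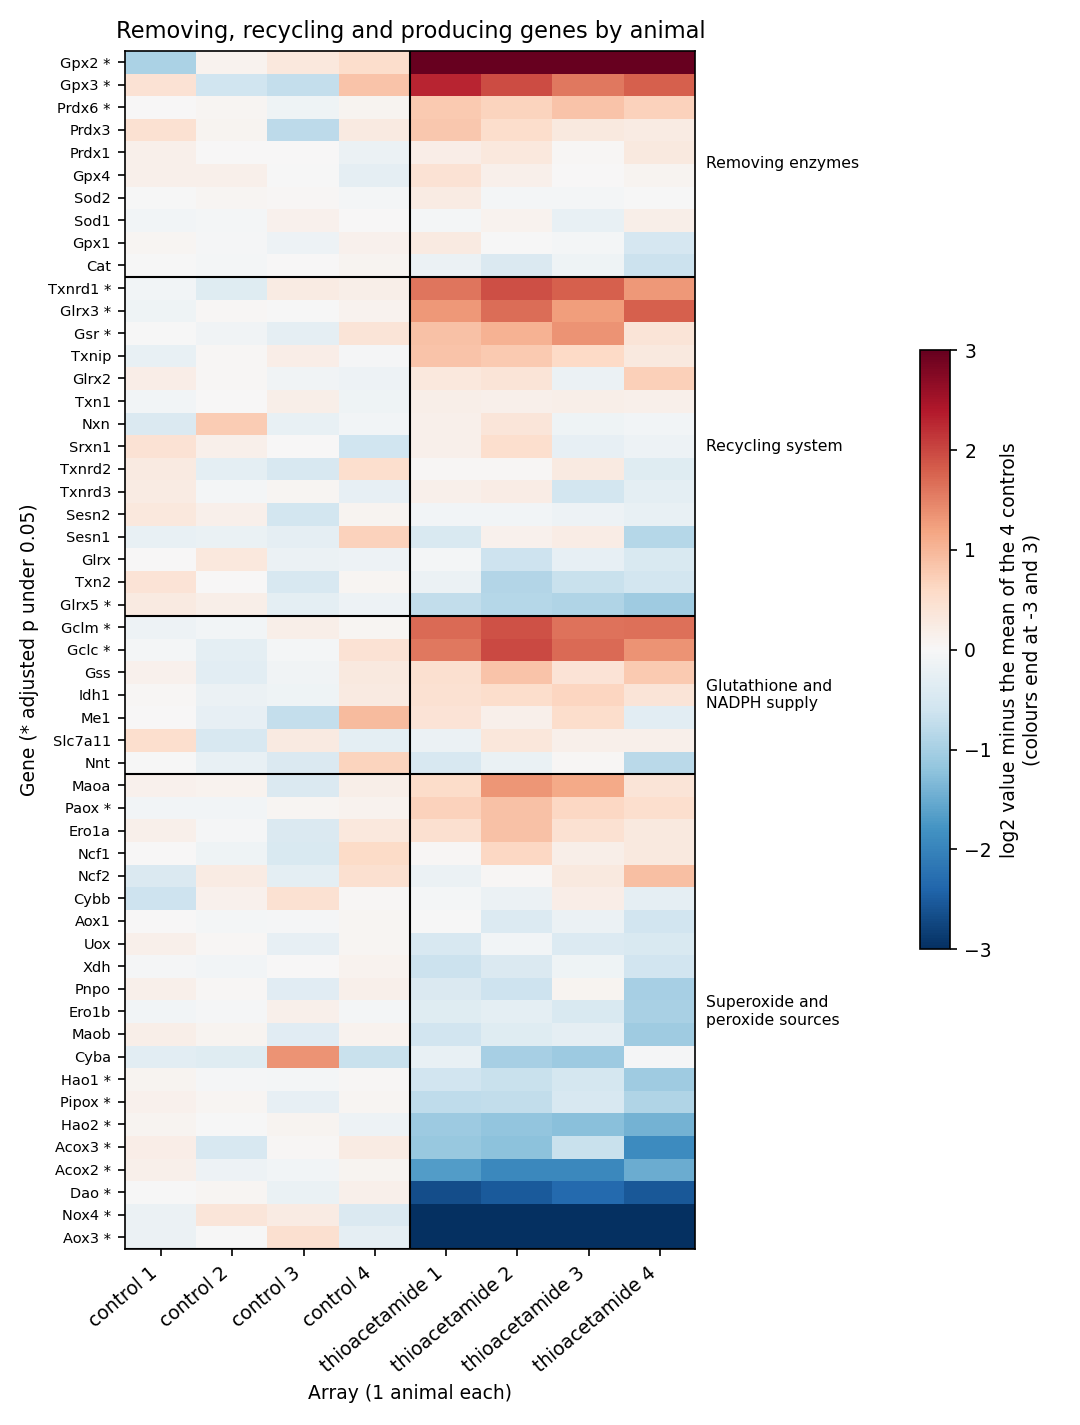
Log2 value minus the mean of the 4 controls (colour, ending at -3 and 3) for each array (x axis) and for genes (y axis) of the removing enzymes, the recycling system, glutathione and NADPH supply, and the sources of superoxide and peroxide; an asterisk marks adjusted p under 0.05. All 4 treated arrays are low for Dao, Nox4 and Aox3 and high for Gpx2, Txnrd1, Glrx3, Gclm and Gclc.

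Markers of other liver cells gave mixed counts, beside shares of 9.46% that rose and 5.14% that fell over all probe sets. Of 8 macrophage markers 3 fell and 0 rose (mean log2 level 11.48 to 12.29 in controls and 10.73 to 11.35 in treated rats), namely Marco, Csf1r and Clec4f, by 1.48 ± 0.40, 0.94 ± 0.24 and 0.85 ± 0.22 (adjusted p = 0.0329, 0.0260 and 0.0276). The number that fell was 1 when thioacetamide replicate 1, 3 or 4 was omitted, 0 when replicate 2 was, and 5 under median centring. Of 8 stellate cell markers 2 rose and 0 fell (9.95 to 10.23 against 10.21 to 10.66), Lrat by 0.73 ± 0.18 and Des by 1.01 ± 0.28 (adjusted p = 0.0242 and 0.0393), Des being at or under background on all control arrays. That number was 0 on omitting control replicate 1 or thioacetamide replicate 1, 2 or 3.

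Of 6 endothelial markers 0 rose and 0 fell in limma (0 and 2 at an unadjusted p under 0.05; 9.80 to 10.11 against 9.32 to 10.04). Stab2 gave 0.73 ± 0.37 and Pecam1 -0.53 ± 0.23 (adjusted p = 0.224 and 0.146), and Stab2 passed when thioacetamide replicate 4 was omitted (adjusted p = 0.0372). Of 8 lymphocyte markers 2 fell and 0 rose (6.92 to 7.36 against 6.49 to 6.96), Gzma by 2.21 ± 0.28 and Nkg7 by 1.04 ± 0.29 (adjusted p = 0.000862 and 0.0397). Of the 8 fits that omit 1 array, Nkg7 passed in those without control replicate 4 or thioacetamide replicate 1, and the defining markers Cd3e and Cd79b were at or under background on all arrays. Omitting thioacetamide replicate 4 gave 1 lymphocyte marker that rose.

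Of 7 erythroid markers 1 rose and 1 fell (9.44 to 10.19 against 9.44 to 9.92). Alas2, the first enzyme of haem synthesis in red cells, fell by 1.51 ± 0.44 (adjusted p = 0.0452), a call that held in 1 of the 8 fits with an array omitted, that without control replicate 1. Without the 3 arrays that stand apart, 4 bile duct markers rose, 1 macrophage marker fell, 2 stellate markers rose and 1 fell, 1 lymphocyte marker rose and 1 fell, and 2 erythroid markers rose and 0 fell. The part of these cells in the results was not tested.

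**Figure D4:**
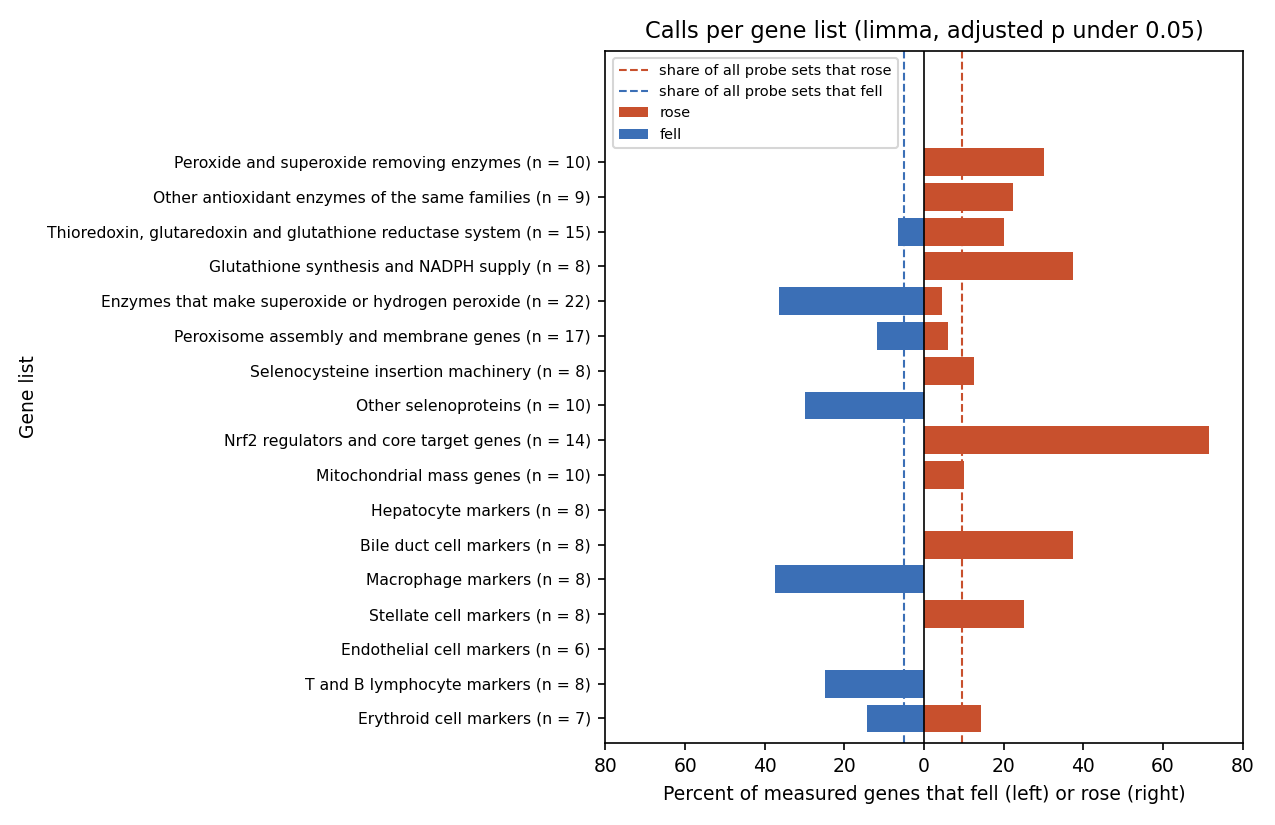
Percent of the measured genes of each list that rose (right) or fell (left) with adjusted p under 0.05 (x axis), by list (y axis, with the number of genes measured), and dashed lines at the shares of all probe sets that rose (9.46%) and fell (5.14%). The removing enzymes have rises alone (3 of 10), the peroxide and superoxide sources have 8 falls and 1 rise among 22, and hepatocyte and endothelial markers have 0 calls.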

How the data were processed

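Liver RNA of 8 rats was labelled with Cy3 and hybridised to NimbleGen arrays, 1 per animal. The deposited log2 values per probe set were made by the authors with RMA, per the submitters' processing notes, which give no version. The series table and the sample files held identical values (largest difference 0), and 11 probe sets had no value in control replicate 4. Probe sets were named by gene identifier (20543), accession (31) or the symbol in the files (5634). A gene was represented by its probe set of highest mean over the arrays. Groups were compared with limma 3.58.1 in R 4.3.3 (lmFit and eBayes), adjusted over all 26208 probe sets; errors are standard errors unless SD is written. Pairs of genes were compared by exact permutation with scipy 1.17.1. The limma step was tested on simulated data. Array number limits the precision.

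The members and the 16 other lists were chosen with earlier results of these data known. From each list the text names the 3 called genes that differed most and the top one going the other way, or the top 2 if there was no call; further genes are named for their role or to account for a count, after their values were seen. Pgd, Selenom, Selenon, Selenoh and Stab1 were not matched to a probe set, and a few listed genes that enter the counts are not reported here by name. Alternatives were median centring, cyclic loess, quantile normalization, a filter on dim probe sets (above background on at least 4 arrays), an intensity trend with robust fitting, weights per array, a block for the replicate number, omitted arrays, and the mean of a gene's probe sets. Deviations of same-numbered arrays from their group means had correlations of 0.25, -0.10, -0.13 and -0.43 for numbers 1 to 4. These gave no sign that the numbers pair the animals, but with groups of 4 they cannot exclude it.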

Additional observations from a re-analysis of the deposited data

Results flagged for a closer look

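Among 102 groups of 4 values examined, 1 held a sample far from the other 3 by Dixon's criterion, which chance meets in about 1 of 20 groups. Hspd1, a mitochondrial chaperone, was at 15.27 in thioacetamide replicate 2, against 14.96 to 15.01 in the other treated rats.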

How the results depend on the processing

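The count of members that rose was 3 in all alternatives run except the replicate block, where it was 2, and the count that fell was 0 in all. Prdx6 was the one lost under the block (adjusted p = 0.0724). Over all probe sets 3827 changed, against 2163 with the replicate block and 2166 to 3924 when 1 array was omitted, the lowest without thioacetamide replicates 2 (2166) and 1 (2466), and 4139 without the 3 arrays that stand apart. The count was 5185 with array weights, 4511 with the filter on dim probe sets and 4320 with an intensity trend. With array weights 3103 rose and 2082 fell. Cyclic loess gave 1998 higher and 1736 lower, median centring 2088 and 1549, against 2480 and 1347. Differences near 0 changed sign without passing. Sod1 became 0.0796 under cyclic loess, 0.0522 under quantile normalization and 0.0189 with array weights, and ranged from -0.0593 to 0.0735 with 1 array omitted. Sod2 became -0.0342 under median centring, with -0.0443 as its lowest value with 1 array omitted and 0.0737 without the 3 arrays. Gpx1 ranged from -0.194 to 0.0630 with 1 array omitted. Sod2 against Sod1 became -0.0780 under cyclic loess and -0.0195 under quantile normalization. With 3 against 4 arrays the permutation test cannot go below 0.0571, so pairs have no call there. Background limits the size of the Gpx2 and Gpx3 rises. The cause of these shifts was not tested.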

Other observations

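Glutathione peroxidases 1 to 4 carry selenocysteine, and of a list of 10 other selenoproteins measured 3 fell and 0 rose (median log2 difference 0.08). That list leaves out selenoproteins counted in other lists, among them Txnrd1, Txnrd2, Txnrd3 and Sephs2. Of these Txnrd1 rose by 1.66 ± 0.22 (limma adjusted p = 0.00106), and the others did not pass. Dio1, the liver deiodinase that activates thyroid hormone, had log2 values of 12.83, 12.74, 12.06 and 12.56 in controls and 11.29, 10.75, 11.43 and 10.79 in treated rats, a 2.79-fold fall (-1.48 ± 0.25, limma adjusted p = 0.00343). Selenoo, a mitochondrial selenoprotein, fell by 0.90 ± 0.17 (adjusted p = 0.00743). Msrb1, a methionine sulfoxide reductase, fell by 0.59 ± 0.18 (adjusted p = 0.0485), a call lost whichever array was omitted (adjusted p from 0.0520 to 0.145). Selenop, the plasma selenium carrier, gave 0.07 ± 0.19 (adjusted p = 0.847). Of 8 genes of the machinery that inserts selenocysteine 1 rose and 0 fell, against 9.46% and 5.14% of all probe sets. The gene that rose was Pstk, a transfer RNA kinase (0.70 ± 0.18, adjusted p = 0.0256). It did not pass under cyclic loess, quantile normalization or an intensity trend, or when control replicate 1 or 2 or thioacetamide replicate 1, 2 or 4 was omitted (adjusted p from 0.0514 to 0.171).

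Of 17 peroxisome assembly and membrane genes 2 fell and 1 rose (median -0.11), against 5.14% and 9.46% of all probe sets. Both falls were membrane proteins, Pxmp2 by 2.01 ± 0.17 (4.03-fold, adjusted p = 0.000100) and Pxmp4 by 0.93 ± 0.20 (adjusted p = 0.0118). Pex26, an import factor, rose by 0.71 ± 0.19 (adjusted p = 0.0339). It did not pass under any of the 3 normalizations or an intensity trend, or when control replicate 2 or 3 or thioacetamide replicate 1, 2 or 3 was omitted (adjusted p from 0.0505 to 0.121). Of 10 genes taken for mitochondrial mass 1 rose and 0 fell (median 0.43), Hspd1 by 0.72 ± 0.18 (adjusted p = 0.0254), which did not pass when control replicate 1 or thioacetamide replicate 1, 2 or 3 was omitted (adjusted p from 0.0553 to 0.0876). With an intensity trend 4 of the 10 rose. In the main fit, 1 rise in a list this short does not set it apart from all probe sets.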
